A study of Mus musculus with 8 samples.

Results

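The complement and coagulation factors were 34 genes of the 45706 in the liver count table, chosen by gene symbol from the plasma proteases, cofactors, regulators and fibrin precursors that the liver secretes, 17 of complement and 17 of coagulation. Each symbol had a row, and each gene passed the filter on low counts, as 14629 of the 45706 genes did. Bulk RNA sequencing was done on livers of 4 wild-type (WT) and 4 S155A female C57BL/6J mice at 4 months of age, on a regular chow diet and fasted overnight before harvest. S155A mice carry a whole-body CRISPR-Cas9 knock-in, traced to a founder, that puts alanine in place of the serine of perilipin 5 (PLIN5), a lipid droplet protein of fat-oxidizing cells, that protein kinase A phosphorylates. The comparison asked how the fasted liver transcriptome differs when this residue cannot be phosphorylated. All 8 mice were fasted, so a response to fasting was not measured here.

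Complement is a plasma cascade of proteases started by antibody and C1, by mannose-binding lectins or by spontaneous turnover of C3, and it converges on C3 cleavage and a membrane pore built from C5 to C9. The clotting cascade leads through factors VII, X and V, or through the contact factors and factors XI and IX, to thrombin, which turns fibrinogen into fibrin; plasmin dissolves the clot. Hepatocytes make most of these proteins, and several of them, fibrinogen and C3 among them, are acute phase proteins. Transcription of the fibrinogen genes in hepatocytes is raised by interleukin 6 through STAT3.

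Total estimated counts ranged from 39709785 to 54540864 per mouse, and a member had between 421 and 579060 counts in a mouse. The labels give the tissue as liver and the cell type as hepatocytes, and the methods describe RNA from whole liver. Albumin (Alb), the main hepatocyte product, was at 63058 to 97392 CPM (counts scaled to a common library size), while 11 of 11 Kupffer cell and macrophage markers, 10 of 10 sinusoidal endothelial and 10 of 10 stellate cell markers passed the filter, so the libraries held other liver cells too. In such bulk samples, fewer cells of a type and less RNA per cell cannot be told apart. The S155A replicate 3 library stood apart by lymphocyte and plasma cell markers, with a summed level of 2081 CPM against 20.7 to 49.3 CPM in the other 7 mice. Of 11 pancreatic acinar markers listed, only 1 passed the filter. The WT replicate 2 library stood apart by this 1 gene, at 9.49 CPM against 0.554 CPM or less. The mice carry animal numbers from 89 to 123 (WT replicates 1 and 4, S155A replicates 1 and 4) or from 830 to 869 (replicates 2 and 3 of each genotype). These low-number and high-number mice are compared because each set holds 2 mice of each genotype, and what the numbers stand for is not given in the sources used here. The p-values measure the spread between these mice, which the labels call biological replicates.

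None of the 34 members passed the genotype test. With edgeR's quasi-likelihood test across all genes, 0 members and 0 of all genes (0%) had an adjusted p under 0.05, the smallest adjusted p of a member was 0.993, and 0 members had an unadjusted p under 0.05, against 3.4% of all genes. With DESeq2, 6 genes and 0 members passed. The 4 S155A values overlapped the 4 WT values for each of the 34 members (2.3% of all genes had genotypes that did not overlap). Of the members, 16 were higher and 18 lower in S155A, with a median log2 fold change of -0.0039 against -0.0050 over all genes tested. In 32 of 34 the log2 fold change lay within 0.25 of 0, and in 29 it was smaller than its standard error. The 2 outside were F7, the protease that starts the tissue factor pathway (log2 fold change 0.35, SE 0.22), and C9, the last subunit to join the membrane attack pore (-0.55, SE 0.38).

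**Figure D1:**
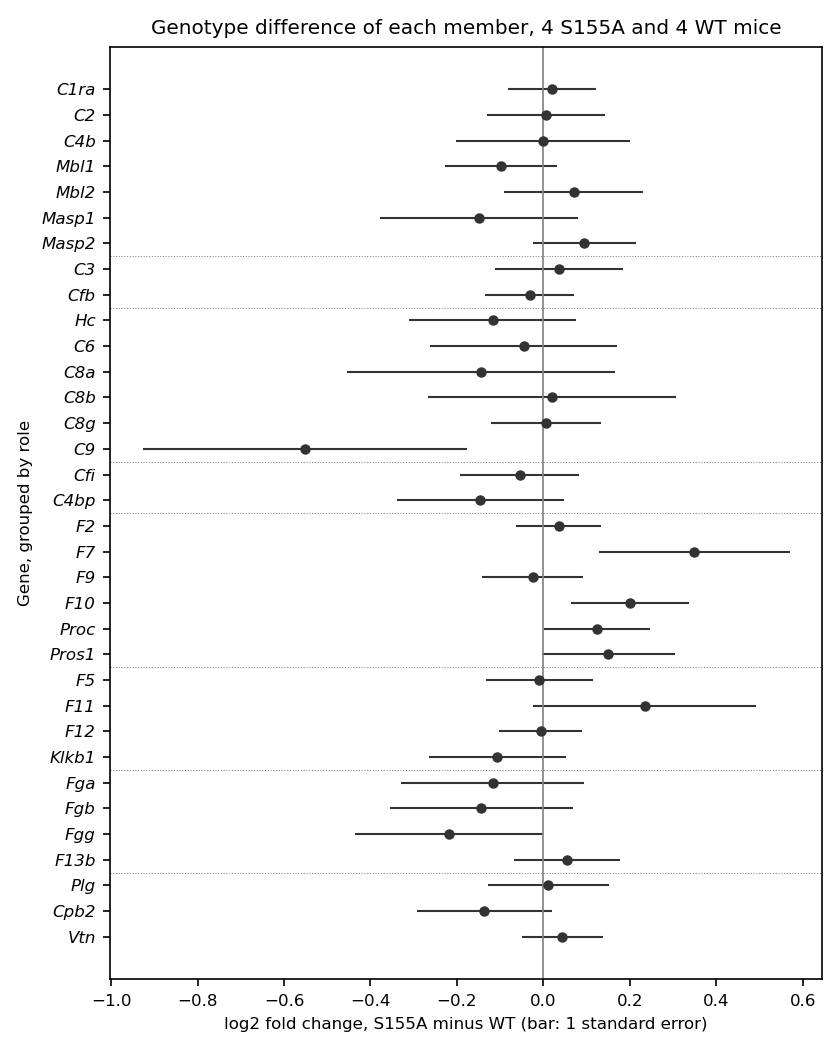
Log2 fold change of each of the 34 members, S155A minus WT, from edgeR (x axis; 4 mice per genotype; bars are 1 standard error; genes on the y axis, with dotted lines between roles). The points lie on both sides of 0, from -0.55 for C9 to 0.35 for F7, and 29 of the 34 bars cross 0.

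Levels spanned a wide range. Per kilobase of the longest coding transcript, the most abundant member in WT was C3, the hub of the complement cascade, at 1781 ± 295 CPM per kb (mean ± SD, n = 4). The fibrinogen gamma chain Fgg followed at 1547 ± 527, the alpha chain Fga at 1261 ± 364, vitronectin (Vtn), a plasma and matrix protein that holds the plasminogen activator inhibitor active, at 1233 ± 25.6, and prothrombin (F2) at 1019 ± 44.3 CPM per kb. In this order C3 and Fgg, Fgg and Fga, and Fga and Vtn differed by less than the larger SD of each pair, while Vtn and F2 differed by more. The order depends on the transcript length used. The beta chain Fgb was at 944.5 ± 302 CPM per kb, with 3810 bases against 2587 for Fga and 1741 for Fgg. Before division by length, WT means were 3598 ± 1151 CPM for Fgb, 3261 ± 943 for Fga and 2694 ± 917 for Fgg. At the other end stood F11, a contact pathway protease, at 8.49 ± 1.06, the lectin pathway protease Masp1 at 5.69 ± 1.13 and C6, which binds C5b to begin the pore, at 4.19 ± 1.30 CPM per kb. Klkb1, the gene of plasma prekallikrein, is left out of this order, since its identifier is assigned in GENCODE M21 to Gm45753, a transcript unit that overlaps Klkb1 and Cyp4v3, and its counts may include reads of either. Together the members took 3.03% to 3.96% of a mouse's counts, and the 3 fibrinogen genes 0.690% to 1.29%.

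The fibrinogen chains had the 3 smallest p of the members for a genotype difference that depended on the set of mice. Fga, Fgb and Fgg encode the chains of the protein that thrombin cuts to fibrin, and they lie side by side in the annotation (GRCm38, GENCODE M21): Fgg at chr3:83007724-83015049 on the plus strand, Fga at chr3:83026076-83033627 on the plus strand and Fgb at chr3:83040141-83049863 on the minus strand. The 250 bases before the RefSeq start of each (RefSeq, GRCm38.p6) are shown because these genes had the same order of the groups of mice. Capitals mark each match on either strand to CTGGGAA, a form of the interleukin 6 response element core of fibrinogen genes, and to GTTAAT. The latter, a part of the binding site of the hepatocyte factor HNF1, reads ATTAAC on the other strand.
Fga, chr3:83025903-83026152, plus strand: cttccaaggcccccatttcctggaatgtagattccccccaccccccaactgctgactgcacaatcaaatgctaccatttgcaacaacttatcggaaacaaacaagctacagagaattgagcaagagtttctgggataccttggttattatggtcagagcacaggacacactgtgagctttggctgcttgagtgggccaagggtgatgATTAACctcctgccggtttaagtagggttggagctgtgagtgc
Fgb, chr3:83049864-83050113, minus strand: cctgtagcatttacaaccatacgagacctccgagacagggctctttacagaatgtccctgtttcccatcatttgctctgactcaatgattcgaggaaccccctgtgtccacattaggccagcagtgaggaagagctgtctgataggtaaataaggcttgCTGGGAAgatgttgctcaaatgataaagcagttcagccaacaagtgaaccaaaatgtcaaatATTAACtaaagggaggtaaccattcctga
Fgg, chr3:83007474-83007723, plus strand: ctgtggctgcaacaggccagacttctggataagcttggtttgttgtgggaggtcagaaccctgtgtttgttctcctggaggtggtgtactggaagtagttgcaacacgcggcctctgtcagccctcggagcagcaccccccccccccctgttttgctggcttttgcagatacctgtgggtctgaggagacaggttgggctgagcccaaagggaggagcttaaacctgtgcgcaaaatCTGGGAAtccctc
CTGGGAA stood in Fgb, starting at -91 from the RefSeq start, and in Fgg at -13. The Fga window held CTGGGA followed by T, which lacks only the last letter and is not marked. GTTAAT stood in Fga at -43 and in Fgb at -29. The RefSeq start of Fga lay 62 bases from that of the GENCODE transcript used, and the starts of Fgb and Fgg were the same in both.

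Fga was at 4300.5 and 3819 CPM in the low-number WT mice, 2478 and 2446 CPM in the high-number WT mice, 2649 and 2429 CPM in the low-number S155A mice and 3604 and 3342 CPM in the high-number S155A mice. The low-number WT mice were the highest of the 8, and the high-number WT mice lay at the level of the low-number S155A mice. Fgb was at 5015 and 4056 CPM in the low-number WT mice, 2652 and 2670.0 CPM in the high-number WT mice, 2949 and 2878 CPM in the low-number S155A mice and 3763 and 3443 CPM in the high-number S155A mice. Fgg was at 3769 and 3140.5 CPM in the low-number WT mice, 1862 and 2004 CPM in the high-number WT mice, 2075 and 2200.4 CPM in the low-number S155A mice and 2609 and 2373 CPM in the high-number S155A mice. For all 3 chains the low-number WT mice were above the high-number S155A mice, and these were above the other 4 mice. Over all 8 mice the genotypes overlapped, with log2 fold changes of -0.12 (SE 0.21) for Fga, -0.14 (SE 0.21) for Fgb and -0.22 (SE 0.22) for Fgg. The last was -0.011 without WT replicate 1 and -0.36 without WT replicate 2. Among low-number mice the mean log2 CPM of S155A minus WT was -0.68 for Fga, -0.63 for Fgb and -0.69 for Fgg, and among high-number mice it was 0.49, 0.44 and 0.36. The genotypes were separate in both sets, in opposite directions, for all 3 chains under each of 4 scalings of the libraries. Of all genes, 2.72% to 4.77%, depending on the scaling, were separate in both sets in these directions. The interaction, which is the S155A minus WT difference in high-number mice less that in low-number mice, was 1.17 (SE 0.19) for Fga, 1.08 (SE 0.20) for Fgb and 1.06 (SE 0.20) for Fgg on the log2 scale. edgeR did not call these at its adjusted p of 0.203 for Fga and 0.21 for the other chains, whereas DESeq2 did, with an adjusted p of 5.02e-06 for Fga, 0.00029 for Fgb and 0.000298 for Fgg. An exact permutation of genotype within each set of mice gave the smallest p that its 36 arrangements allow, 0.0556, for each chain. Any gene whose genotypes are separate in both sets in opposite directions must reach this p. It therefore restates the separation given above and is not further support. The 8 mice fell into groups by genotype and set, so no correlation between the chains across mice is given.

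**Figure D2:**
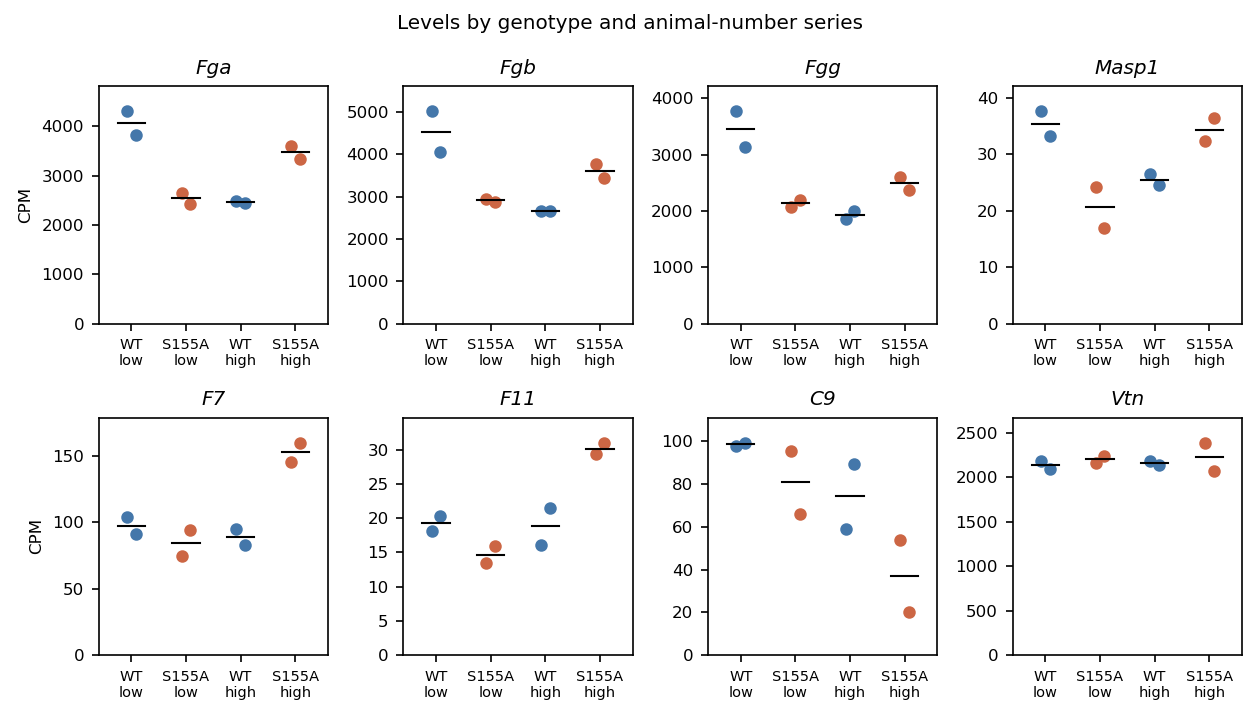
CPM (y axes, from 0) of 8 members in each mouse, by genotype and animal-number set (x axis; 2 mice each; blue WT, orange S155A; black lines are means of 2). Fga, Fgb, Fgg and Masp1 are higher in WT among low-number mice and higher in S155A among high-number mice, C9 is lower in S155A in both sets, and Vtn is nearly level.

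Factor XIII B (F13b), the carrier subunit of the enzyme that crosslinks fibrin, had a log2 fold change by genotype of 0.055 and was at 117 ± 11.5 CPM in WT and 122 ± 15.7 CPM in S155A (mean ± SD, n = 4 each). Its interaction of 0.39 did not reach an unadjusted p under 0.05, as those of the fibrinogen chains did. Of the genes that act on the clot, plasminogen (Plg), the precursor of plasmin, was at 2416 ± 342 CPM in WT and 2435 ± 318 CPM in S155A (log2 fold change 0.011). It was -0.31 in low-number and 0.33 in high-number mice, S155A minus WT. Its genotypes were separate in both sets in these directions, as were those of 4.76% of all genes. Cpb2, a carboxypeptidase that shields fibrin from plasmin, was at 213 and 157 CPM in the low-number WT mice, 157 and 161 CPM in the high-number WT mice, 140.2 and 125 CPM in the low-number S155A mice and 187 and 173 CPM in the high-number S155A mice. It was highest in the WT replicate 1 mouse, the other 3 WT mice lay close to each other, and the genotypes overlapped over the 8 mice (log2 fold change -0.14, SE 0.16). With WT replicate 1 left out, Cpb2 had a fold change of -0.014 on the log2 scale and an interaction of 0.43, against 0.66 (SE 0.23) with all mice, and without S155A replicate 2 the fold change was -0.23. Vtn had one of the narrowest spreads, 2094 to 2188 CPM in WT and 2072 to 2386 CPM in S155A, with an interaction of 0.0015.

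The 6 vitamin K dependent members are proteins that need carboxylated glutamates to bind membranes. F7 was at 104 and 91.1 CPM in the low-number WT mice, 95.2 and 82.6 CPM in the high-number WT mice, 74.5 and 94.6 CPM in the low-number S155A mice and 146 and 159.9 CPM in the high-number S155A mice. The high-number S155A mice were the highest of the 8, and the low-number S155A mice overlapped WT. Without the S155A replicate 3 mouse its log2 fold change by genotype was 0.17, and without the S155A replicate 1 mouse 0.52. F10, the protease of the prothrombin-cleaving complex, lies next to F7 (chr8:13026034-13035809 for F7 and chr8:13037308-13056676 for F10, both on the plus strand) and was at 411 and 428 CPM in the low-number WT mice, 469.7 and 399 CPM in the high-number WT mice, 406 and 428 CPM in the low-number S155A mice and 596 and 533 CPM in the high-number S155A mice. Here too the high-number S155A mice were above all others, with the rest between 399 and 469.7 CPM (log2 fold change 0.20, SE 0.14, and 0.10 without S155A replicate 2). Protein C (Proc), which inactivates factors V and VIII, was at 537 and 582 CPM in the low-number WT mice, 707 and 596 CPM in the high-number WT mice, 564 and 662 CPM in the low-number S155A mice and 738 and 675 CPM in the high-number S155A mice (log2 fold change 0.12, SE 0.12). Protein S (Pros1), its cofactor, was at 51.2 and 39.6 CPM in the low-number WT mice, 31.0 and 33.7 CPM in the high-number WT mice, 39.8 and 44.3 CPM in the low-number S155A mice and 47.9 and 40.6 CPM in the high-number S155A mice (log2 fold change 0.15, SE 0.15). Both were slightly higher in the S155A mean with overlapping mice, and Pros1 was at 0.31 with WT replicate 1 left out and at 0.057 with WT replicate 2 left out. F2 (0.035) and F9, the protease that activates factor X (-0.025), differed little by genotype, and F2 ranged over all 8 mice from 1931 to 2270.0 CPM. The interaction had an unadjusted p under 0.05 for F7 (0.99, SE 0.22), Pros1 (0.56, SE 0.23) and F9 (0.42, SE 0.18), and not for F10 (0.39), F2 (0.096) or Proc (-0.017). The interaction of Pros1 was 0.37 without WT replicate 1. Of the 5 genes of the vitamin K cycle, which regenerate the vitamin for the carboxylase, 0 passed any of the genotype and interaction criteria, with a median interaction of 0.097.

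Of the cofactor and contact factors, F11 had the largest difference between the sets of mice. F11 was at 18.1 and 20.4 CPM in the low-number WT mice, 16.1 and 21.5 CPM in the high-number WT mice, 13.4 and 15.9 CPM in the low-number S155A mice and 29.3 and 31.0 CPM in the high-number S155A mice. The high-number S155A mice were the highest and the low-number S155A mice the lowest of the 8, with all WT mice between them (log2 fold change by genotype 0.23, SE 0.26, interaction 1.08, SE 0.25). The log2 fold change by genotype was 0.037 without S155A replicate 3 and 0.42 without S155A replicate 1. Klkb1, with the uncertain identifier given above, was at 94.2 and 123 CPM in the low-number WT mice, 125 and 128 CPM in the high-number WT mice, 84.0 and 103 CPM in the low-number S155A mice and 136 and 113 CPM in the high-number S155A mice (log2 fold change -0.11, SE 0.16). It was lowest in the replicate 1 mice of both genotypes. Factor V (F5), the cofactor of factor X (-0.0090), and factor XII (F12), the protease that starts the contact pathway (-0.0066), did not pass, and F12 was at 659 ± 44.7 CPM in WT and 656 ± 38.4 CPM in S155A. F12 had an interaction of 0.0054.

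Among the 7 genes that start the classical and lectin pathways, none passed by genotype, with log2 fold changes of 0.020 for C1ra, a C1 protease, 0.0071 for C2 and -0.0013 for C4b, whose products form the C3 convertase, -0.099 and 0.071 for the mannose-binding lectins Mbl1 and Mbl2, and -0.15 and 0.095 for their proteases Masp1 and Masp2. Masp1 was at 37.6 and 33.2 CPM in the low-number WT mice, 26.4 and 24.5 CPM in the high-number WT mice, 24.2 and 17.0 CPM in the low-number S155A mice and 32.4 and 36.3 CPM in the high-number S155A mice. It was higher in WT among the low-number mice and higher in S155A among the high-number mice, with an interaction of 1.21 (SE 0.25, edgeR adjusted p = 0.232). Masp1 overlaps Rtp4, an interferon-induced gene, on the opposite strand, and the library kit keeps strand but the strand setting of the counting is not given in the sources used here. Mbl2 was at 206 and 295 CPM in the low-number WT mice, 345 and 328 CPM in the high-number WT mice, 276 and 302 CPM in the low-number S155A mice and 354 and 301 CPM in the high-number S155A mice. It was lowest in the WT replicate 1 mouse and overlapped between genotypes. C4b ranged from 1099 CPM in the S155A replicate 4 mouse to 2275 CPM in the S155A replicate 2 mouse, with both extremes in S155A and an interaction of 0.88 (SE 0.24). C4b and C1ra have near-identical copies, C4a and C1rb, between which counts could be split.

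C3 was at 9146 ± 1516 CPM in WT and 9380.4 ± 1088 CPM in S155A (log2 fold change 0.036, SE 0.15) and had differences of -0.28 in low-number and 0.36 in high-number mice. Factor B (Cfb), the protease of the alternative pathway, was at 1253 ± 89.2 CPM in WT and 1226 ± 98.1 CPM in S155A (log2 fold change -0.032) and showed no such split, with an interaction of 0.026. The C2 and Cfb genes lie end to end and share a readthrough unit, Gm20547, so some reads of one may be counted for the other. Of the complement regulators, Cfi, the protease that cuts C3b and C4b, had a log2 fold change of -0.055 and its cofactor C4bp of -0.15, and their interactions were 0.55 and 0.72.

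The membrane attack genes held the largest spread between mice of a genotype. C9 was at 98.0 and 99.3 CPM in the low-number WT mice, 59.0 and 89.5 CPM in the high-number WT mice, 95.6 and 65.9 CPM in the low-number S155A mice and 54.0 and 20.1 CPM in the high-number S155A mice. The S155A replicate 3 mouse, the one with the high immunoglobulin counts, was the lowest, and in each set both S155A mice were below both WT mice, although the 8 mice together overlapped (59.0 to 99.3 CPM in WT and 20.1 to 95.6 CPM in S155A). The SD of log2 CPM in S155A was 0.96, the largest of any member, and the log2 fold change of -0.55 became -0.27 without that mouse and -0.89 without S155A replicate 1. The part of the immune cells of that library in its C9 level was not tested. C9 was the 1 member whose genotypes were separate in both sets in the same direction (-0.31 in low-number and -1.14 in high-number mice), which 5.39% of all genes did, so nothing particular to C9 is read from it. C8a, the chain of C8 that enters the membrane, was at 137 and 83.4 CPM in the low-number WT mice, 40.3 and 82.9 CPM in the high-number WT mice, 63.9 and 72.6 CPM in the low-number S155A mice and 105 and 69.1 CPM in the high-number S155A mice. C8b, whose product joins C8 to the growing pore, lies beside C8a (chr4:104766317-104804548 for C8b on the plus strand and chr4:104815679-104876398 for C8a on the minus strand) and was at 87.4 and 49.4 CPM in the low-number WT mice, 29.7 and 52.4 CPM in the high-number WT mice, 52.6 and 41.4 CPM in the low-number S155A mice and 72.4 and 55.5 CPM in the high-number S155A mice. Both were highest in the WT replicate 1 mouse and lowest in the WT replicate 2 mouse, so that the WT mice spanned the S155A mice, and the log2 fold changes were -0.14 (SE 0.31) and 0.019 (SE 0.29). C8g, a lipocalin that is the third chain of C8, was at 349 and 374 CPM in the low-number WT mice, 515 and 417 CPM in the high-number WT mice, 401 and 408 CPM in the low-number S155A mice and 438 and 416 CPM in the high-number S155A mice (log2 fold change 0.0063). Its 4 high-number mice were all above its 4 low-number mice. The share of all genes with this trait is not given here, so nothing is read from it. edgeR's test of the sets did not call C8g (unadjusted p = 0.068, adjusted p = 0.43). Hc, the gene of C5, had a log2 fold change of -0.12 and C6 of -0.045, with interactions of 0.81 (SE 0.30) and 0.92 (SE 0.30). The interaction of Hc was 0.49 without WT replicate 1. Those of C8a and C8b, 1.19 (SE 0.50) and 1.18 (SE 0.46), became 1.80 and 1.65 with WT replicate 3 left out. The lowest values were 0.76 for C8a, with WT replicate 2 left out, and 0.71 for C8b, with WT replicate 1 left out.

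High-number and low-number mice were then compared with genotype in the model. edgeR called 0 members and 0 of all genes (0%), and DESeq2 0 members and 408 genes. At an unadjusted p under 0.05 there were 4 members (11.8%) against 12.8% of all genes, so the share was near the background. These were F11 (log2 difference, high minus low, 0.50), Klkb1 (0.32) and Mbl2 (0.30), higher in high-number mice, and C9 (-0.77), lower. The median over the members was 0.025.

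The genotype difference was then compared between the sets of mice. For the interaction, edgeR called 0 members and 0 of all genes (0%), with a smallest adjusted p of 0.203, that of Fga. At an unadjusted p under 0.05 there were 17 of 34 members, all with a positive interaction, against 11.1% of all genes, or 6.02% that were also positive. Among the 6901 genes at or above the lowest mean CPM of a member, these shares were 14.2% and 7.48%. The members were measured in the same 8 mice, so their count is not a count of independent results. The median interaction was 0.49 on the log2 scale over the members and -0.0092 over all genes tested, and 29 of 34 were positive. The median within low-number mice was -0.23, with 30 of 34 members lower in S155A, and within high-number mice 0.23, with 27 of 34 higher. In 12 members the genotypes did not overlap in either set, with S155A lower in the low-number and higher in the high-number mice, against 4.76% of all genes: C3, C4b, Masp1, C6, Cfi, F9, F11, Fga, Fgb, Fgg, Plg and Cpb2. Of the 6901 genes at or above the lowest mean CPM of a member, 376 did so. With libraries scaled by total count alone, which moved the median interaction of all genes to -0.16, this held for 8 members (without C6, Cfi, F9 and Cpb2) against 2.72% of all genes. DESeq2 called 7 members and 285 genes in all: C4b, F7, F11, Fga, Fgb, Fgg and Masp1. Without the filter on low counts edgeR called 10 members and 765 of 22439 genes. Leaving out 1 mouse moved the 17 members to between 10, without S155A replicate 2, and 19, without WT replicate 4; 11 were left without WT replicate 1 or without S155A replicate 4, and 16 without S155A replicate 3.

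**Figure D3:**
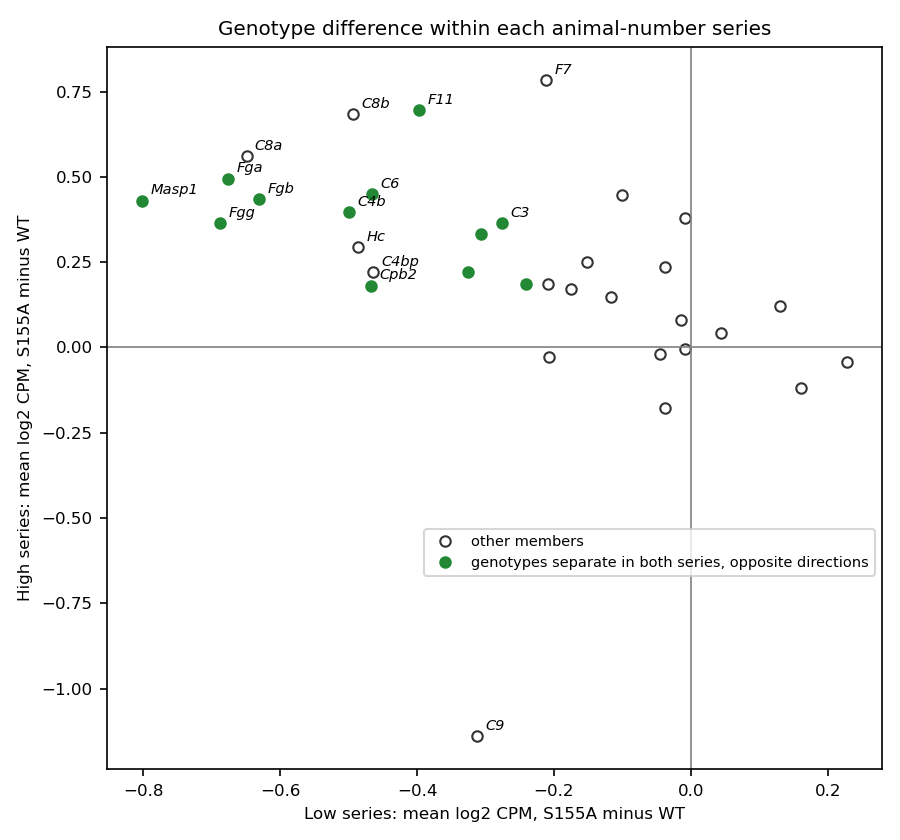
Mean log2 CPM of S155A minus WT among low-number mice (x axis) and among high-number mice (y axis) for the 34 members (filled: genotypes separate in both sets in opposite directions, 12 members; open: the others; n = 2 mice per genotype and set). Most points lie in the upper left, lower in S155A on the x axis and higher on the y axis, and C9 is below 0 on both.

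Seen by mouse, most members lay on one side of their mean in several of the mice. The median deviation of the 34 members from their mean over mice was highest in S155A replicate 2, at 0.19 on the log2 scale with 33 of 34 members above their mean, and in WT replicate 1, at 0.15 with 13 members at their highest of the 8 mice. It was lowest in S155A replicate 1, at -0.15 with 2 members above their mean, followed by S155A replicate 4 at -0.10 and WT replicate 2 at -0.098. WT replicate 3 was at -0.065, WT replicate 4 at 0.010 and S155A replicate 3 at 0.049. Each genotype thus held mice on both sides.

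**Figure D4:**
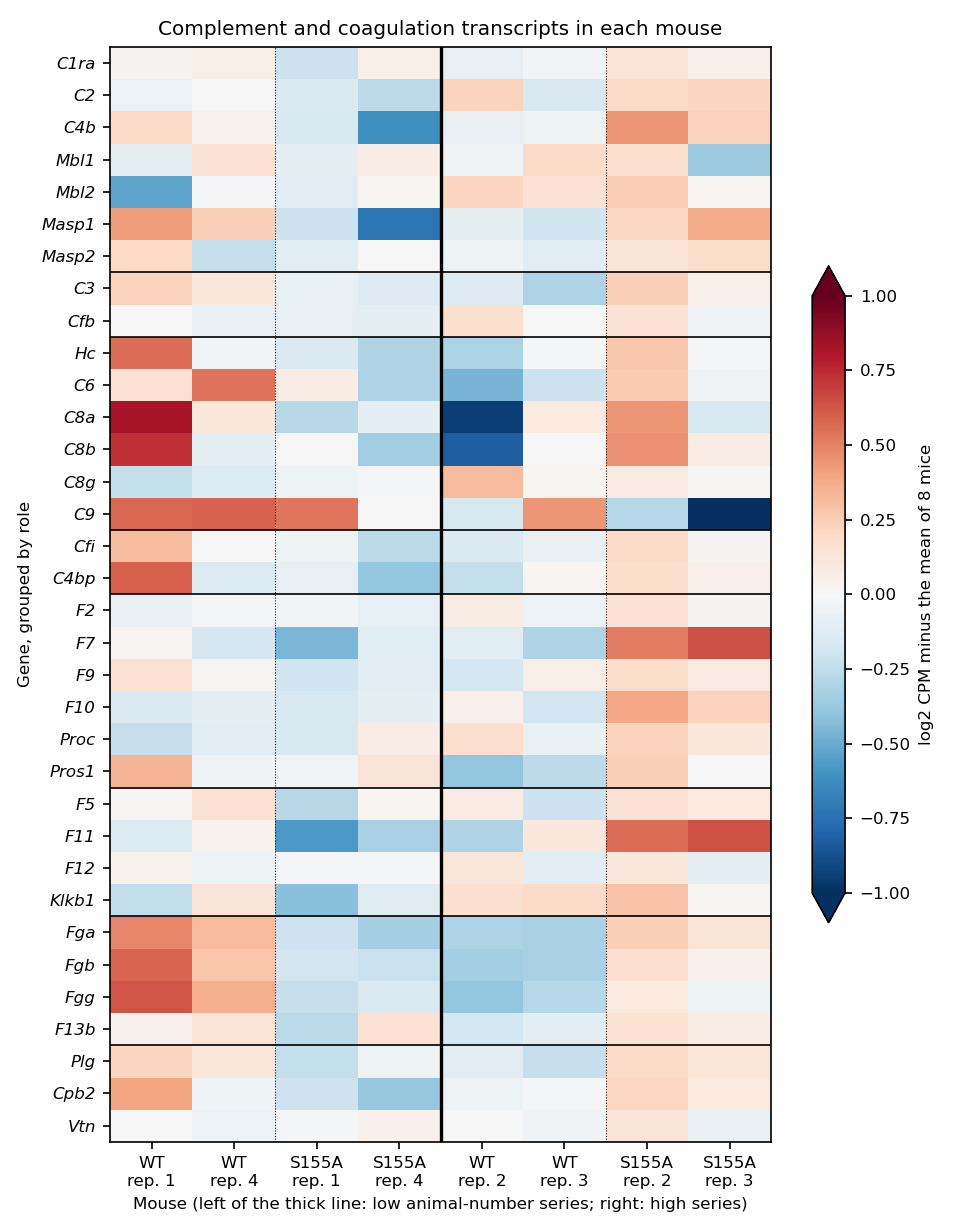
Log2 CPM of each member (rows, grouped by role) minus its mean over the 8 mice (columns, low-number mice left of the thick line, high-number mice right; dotted lines separate WT from S155A). Red is above and blue below the mean, with colours saturating at 1; the low-number WT and the high-number S155A columns are mostly red in the fibrinogen rows and the other 4 columns blue.

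Other genes of these systems were compared in the same way. Of 27 other complement genes tested of 31 listed, 0 were called by genotype. An unadjusted p under 0.05 was found for 2, both lower in S155A, against 3.4% of all genes in either direction. The smallest p were those of Cd55, a membrane inhibitor of C3 convertases (-0.42, SE 0.15, edgeR adjusted p = 0.993), Colec10, the other of the 2 (-0.47, SE 0.18), and, among the higher ones, C1qa (0.30, SE 0.27). Their median interaction was 0.44, with 7 at an unadjusted p under 0.05, all positive, against 6.02% of all genes. Serping1, the C1 inhibitor, led these (0.73, SE 0.20). Of the genes with a negative interaction Cd46 had the smallest p (-1.18, SE 0.60). Of 25 other coagulation genes tested of 27 listed, 0 were called by genotype, and the smallest p were those of F8, the cofactor made by endothelial cells (-0.49, SE 0.16, edgeR adjusted p = 0.993), and Mcfd2 (0.20, SE 0.14). Their median interaction was 0.42, with 9 positive and 1 negative at an unadjusted p under 0.05, against 11.1% of all genes in either direction. The smallest p were those of Serpinf2, the plasmin inhibitor (1.02, SE 0.19), and, among the negative ones, Vwf, an endothelial and platelet adhesion protein (-1.51, SE 0.52). Antithrombin (Serpinc1), the main inhibitor of thrombin, had an interaction of -0.28 (SE 0.18). In the vitamin K cycle the genes with the smallest p by genotype were Cyp4f14 (0.24) and Vkorc1l1 (-0.092), and by interaction Ggcx, the carboxylase (0.38), and Vkorc1l1 (-0.028).

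Acute phase, macrophage, hepatocyte and neutrophil genes had median differences of the same sign as the members in each set of mice. So had the other complement and coagulation genes. Of 18 acute phase genes, 18 had a positive interaction and 13 an unadjusted p under 0.05. Of all genes, 11.1% had an unadjusted p under 0.05 for the interaction, or 6.02% that were also positive. The acute phase genes had a median interaction of 1.44 and a median difference of -0.59 in low-number and 0.78 in high-number mice, with 0 called by genotype. Stat3, the transcription factor downstream of the interleukin 6 receptor, was at 142 and 149.9 CPM in the low-number WT mice, 88.7 and 92.7 CPM in the high-number WT mice, 91.1 and 85.4 CPM in the low-number S155A mice and 136 and 156 CPM in the high-number S155A mice (interaction 1.41, SE 0.17, edgeR adjusted p = 0.0851). By genotype the smallest p of the list were those of Cp, ceruloplasmin (-0.25, SE 0.13), and Socs3, a STAT3 target that limits its signalling (0.46, SE 0.30). All 11 Kupffer cell and macrophage markers had a positive interaction, 8 of them at an unadjusted p under 0.05, with a median of 1.29, and their summed level was 357 and 588 CPM in the low-number WT mice, 298 and 342 CPM in the high-number WT mice, 452 and 300 CPM in the low-number S155A mice and 659 and 483 CPM in the high-number S155A mice. C1qa, C1qb and C1qc are in both the complement and the macrophage list. The 12 hepatocyte markers had a median interaction of 0.46, near that of the members, with median differences of -0.10 in low-number and 0.31 in high-number mice. Of them 9 had a positive interaction, Alb among them (0.61, SE 0.22), while that of Fabp1 was -1.42 (SE 0.33). Their summed level was 135830 and 127560 CPM in low-number WT, 131650 and 121240 CPM in high-number WT, 122890 and 119240 CPM in low-number S155A and 153580 and 159080 CPM in high-number S155A mice. The part of these genes in the members' values was not tested. Sinusoidal endothelial and stellate cell markers had median interactions of -0.095 and -0.16, lymphocyte and plasma cell markers, high in S155A replicate 3, had 1.64, neutrophil markers, of which 5 of 8 were tested and whose summed level reached 16.1 CPM at most, had 1.34, platelet markers (3 of 8 tested) -0.88, cholangiocyte markers (5 of 6 tested) -0.12 and red blood cell markers 0.11. Of 18 liver transcription factors, 2 had a positive and 2 a negative interaction at an unadjusted p under 0.05, with a median of 0.37. Esr1 (0.73) and Nr2f6 (-0.56) had the smallest p in each direction, and by genotype Cebpd (0.68) and Prox1 (-0.39).

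**Figure D5:**
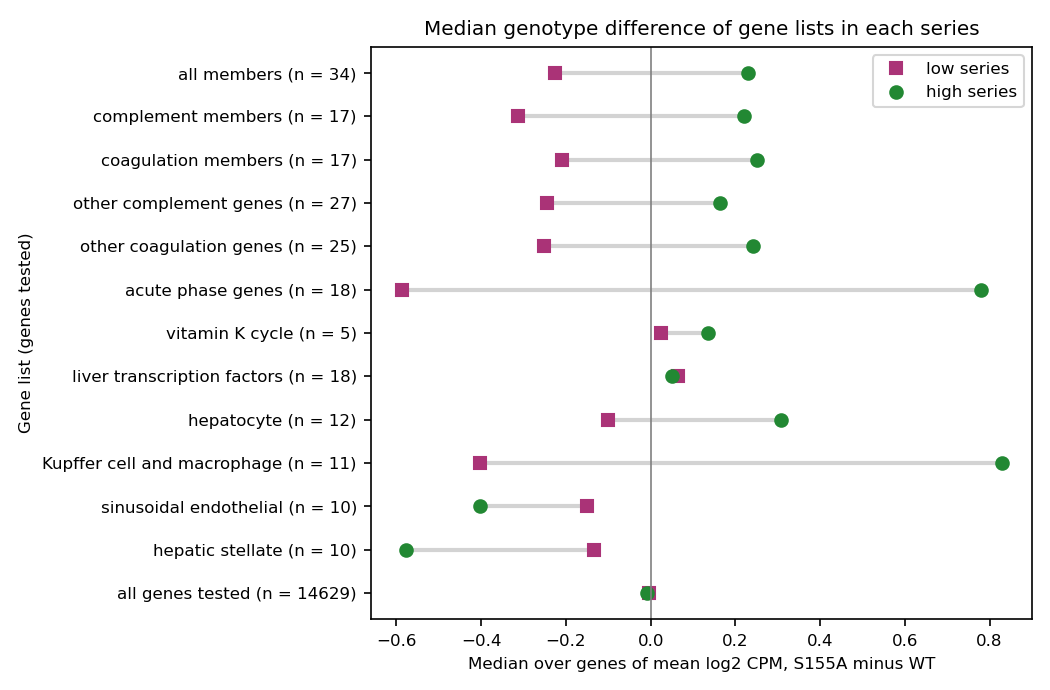
Median over the genes of each list of mean log2 CPM, S155A minus WT, among low-number mice (squares) and high-number mice (circles); the y axis gives the lists with the number of genes tested. The 34 members go from -0.23 to 0.23, the acute phase genes from -0.59 to 0.78 and all genes tested stay near 0 in both sets.

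Short sequence matches in the 250 bases before the RefSeq start were counted in the 27 members with an entry, on both strands, and set beside the 32851 windows of the same length in the table. GTTAAT stood in 9 of 27 (33.3%; 6.43% of all windows), in C1ra, Hc, C8a, C8b, C4bp, Fga, Fgb, F13b and Vtn. CTGGGAA stood in 5 of 27 (18.5%; 9.1% of all windows), in C1ra, Masp2, F9, Fgb and Fgg. TTNNGNAAT, a form of the C/EBP site, stood in 6 of 27 (22.2%; 10.2%), CAAAGTCCA, a form of the HNF4 site, in 0 (0.384% of all windows) and the TATAAA box in 3 of 27 (11.1%; 12.4%). The genes with GTTAAT included both Fga, with the smallest p of any member for the interaction, and Vtn, with an interaction of 0.0015. A match in these letters is a description of the window and says nothing about binding.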

How the data were processed

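Bulk RNA-seq was measured in livers of 4 WT and 4 S155A fasted mice, grouped by genotype as in the labels. The authors prepared stranded poly(A) libraries, sequenced them as paired ends and deposited a table of estimated counts per gene from salmon, scaled by transcript length and library size. The submitters' processing notes name bcl2fastq, STAR, SAMtools, MultiQC and DESeq2 with GRCm38; their versions, the annotation release and the strand setting are not given in the sources used here. The table held 0 columns of other samples.

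The values were rounded to integers, genes were filtered by edgeR's filterByExpr on genotype and libraries were scaled by TMM, and CPM values use these scaled library sizes. edgeR 4.0.16 (R 4.3.3) quasi-likelihood fits tested genotype; animal-number set with genotype; and their interaction, each adjusted by Benjamini-Hochberg over 14629 genes. Log2 CPM used a prior count of 2. Scripts were tested on simulated counts. Alternatives were DESeq2 1.42.0, limma 3.58.1 (voom), other scalings and filters, a replicate block, an animal-number block and leaving out each mouse. Exact permutation tests were two-sided over 8 mice and cannot go below 0.0286 for 4 against 4 mice, or 0.0556 within sets. Counts from a read library are not independent molecules, and the depth given per mouse covers counting error only.

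The members and lists were chosen with earlier results of these data known. Each of the 34 members is named; each mouse's CPM is given for members with the smallest p in each test (8 for genotype, 4 for animal-number set, 4 for the interaction), for the 3 with the largest spread, for those whose sets or genotypes do not overlap, and for fibrinogen. Of the other lists, the gene with the smallest p in each direction is named. Other genes are named only where a marker statement or a shared pathway needs them. Positions are from GENCODE M21, which holds 45143 of the 45706 identifiers; 27 of 34 members had a RefSeq promoter. The counts do not show the edited codon, so the genotype labels could not be checked from them.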

Additional observations from a re-analysis of the deposited data

Results flagged for a closer look

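Of 68 groups of 4 mice searched among the 34 members, 2 held a single mouse far from the other 3 by Dixon's criterion, and chance gives about 1 in 20 such groups. Both were the WT replicate 1 mouse: Klkb1 at 94.2 CPM, below the other WT mice at 123 to 128 CPM, and Cpb2 at 213 CPM, above the other WT mice at 157 to 161 CPM.

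In 12 members, against 4.76% of all genes, both S155A mice were below both WT mice among low-number mice and above them among high-number mice. The pattern was not particular to the members: it held for 4 of 27 other complement, 9 of 25 other coagulation and 7 of 18 acute phase genes. With libraries scaled by total count alone this held for 8 members, against 2.72% of all genes. The interaction on the log2 scale was 0.88 for C4b, 1.21 for Masp1, 0.64 for C3, 0.92 for C6, 0.55 for Cfi, 0.42 for F9, 1.08 for F11, 1.17 for Fga, 1.08 for Fgb, 1.06 for Fgg, 0.64 for Plg and 0.66 for Cpb2. edgeR's test of the interaction had an adjusted p between 0.203 and 0.443 in these members. The interaction was tested after the animal-number sets had been seen in earlier results of these data, and what sets the numbers apart is not given in the sources used here.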

How the results depend on the processing

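No member was called by genotype under any of 9 alternatives or with any 1 of the 8 mice left out. The interactions of the 17 members at an unadjusted p under 0.05 were positive under every alternative, but their size moved by over 1.5 times with 1 mouse left out in 5 members: 0.76 to 1.80 for C8a, 0.71 to 1.65 for C8b, 0.43 to 0.87 for Cpb2, 0.49 to 1.08 for Hc and 0.37 to 0.74 for Pros1. By genotype, 14 of 306 member values changed direction, each near 0. C4b was 0.0023 with DESeq2, 0.0023 with DESeq2's size factors, 0.0023 with TMM without the 50 most abundant genes and 0.00037 with at least 1 CPM in 4 mice. C2 was -0.0012 with voom, -0.0013 with the replicate block and -0.0066 with the animal-number block. Scaling by library size alone gave C2 -0.037, C1ra -0.023, C3 -0.0044, C8b -0.025, C8g -0.032, F2 -0.0049 and Plg -0.032. Leaving out 1 mouse gave log2 fold changes by genotype of -0.065 to 0.090 for C2, -0.16 to 0.16 for C4b, -0.062 to 0.16 for Mbl2, -0.23 to 0.087 for Hc, -0.38 to 0.17 for C8a, -0.062 to 0.13 for C8g, -0.12 to 0.056 for Cfi, -0.24 to 0.070 for C4bp, -0.083 to 0.034 for F9, -0.041 to 0.035 for F12, -0.23 to 0.047 for Fga, -0.26 to 0.062 for Fgb, -0.016 to 0.088 for C1ra, -0.051 to 0.13 for C3, -0.082 to 0.018 for Cfb, -0.18 to 0.34 for C8b, -0.077 to 0.074 for F5, -0.060 to 0.093 for Plg, -0.18 to 0.16 for C6, -0.22 to 0.00052 for Klkb1, -0.0031 to 0.069 for F2 and -0.31 to 0.025 for Masp1. Members that kept their sign ran from -0.89 to -0.27 for C9, -0.23 to -0.014 for Cpb2, 0.10 to 0.28 for F10, 0.037 to 0.42 for F11, 0.0070 to 0.14 for F13b, 0.17 to 0.52 for F7, -0.36 to -0.011 for Fgg, 0.035 to 0.19 for Masp2, -0.17 to -0.0054 for Mbl1, 0.074 to 0.21 for Proc, 0.057 to 0.31 for Pros1 and 0.014 to 0.076 for Vtn. Leaving out 1 mouse gave 0 to 2 members at an unadjusted p under 0.05 by genotype, 0 to 111 genes called by animal-number set, 10 to 19 members at an unadjusted p under 0.05 by interaction and 0 to 40 genes called by interaction; where it left 1 mouse in a cell of the design, that mouse was taken to vary like the others. DESeq2 called 408 genes by animal-number set and 285 by interaction, 7 of them members. Without the low count filter edgeR called 514 genes by animal-number set, 1 of them a member (C9), and 765 by interaction, 10 of them members. Scaling by library size alone gave a median interaction of 0.33 over the members and -0.16 over all genes. With this scaling 12 members had an unadjusted p under 0.05 by interaction in edgeR, against 13.4% of all genes. The cause of these differences was not tested. The alternatives of single interactions and of counts over all genes were added after seeing the data.

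Whether replicate numbers pair the mice was not tested. The correlations of same-numbered WT and S155A mice were low, from -0.11 to 0.17, and 2 of 4 were over 0.1. Of the WT mice, 3 of 4 correlated best with their own number. With the replicate block, 0 members were called and C2, given above, changed direction. The lowest count of a member in a mouse was 421, so counting error was small beside the spread between mice.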
